A study of Rattus norvegicus with 24 samples.

Results

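Prc1, Spc25, Hmmr, Kif2c and Prim1, genes of mitosis and DNA replication, were followed through the mesenteric arteries of 12 rats given estradiol benzoate, testosterone or vehicle. The 5 genes were chosen by their log2 differences between these groups in an earlier pass over the same arrays, so those differences are given below as a description with no test. Every probe whose single gene symbol was 1 of the 5 was taken, which gave 6 probes of 10399, Hmmr having a pair of them. All 6 were among the 10228 probes (6371 named genes) that were tested because 3 or more animals per group gave a value.

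Mesenteric arteries are the small arteries that carry blood to the intestine. They came from female Sprague Dawley rats that had their ovaries removed at 3 weeks of age, recovered for 2 weeks and were 5.5 weeks old at the end, so all 3 groups, vehicle included, lacked the ovaries. For 4 days, 4 rats received vehicle (sesame oil), 4 received estradiol benzoate at 0.15 mg/kg/day and 4 received testosterone at 1 mg/kg/day, all by intraperitoneal injection. Each animal's cRNA was read on 2 CodeLink arrays, and the animal, the mean of its arrays on the log2 scale, is the replicate throughout. Animals are named by group and by the number the labels give them. The animals of these groups were young and without ovaries, and the hormone was given for a short course, which limits what the groups stand for.

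The genes act at successive steps of cell division. Prim1 encodes the catalytic subunit of primase, which lays down the RNA primers that start DNA synthesis and works in a complex with the other primase subunit (Prim2) and the DNA polymerase alpha subunits (Pola1, Pola2). Spc25 is a subunit of the NDC80 complex, the part of the kinetochore that holds microtubules. Kif2c, also called MCAK, is a kinesin that takes microtubules apart at centromeres. Prc1 bundles the antiparallel microtubules of the central spindle before the cell divides, and Hmmr, a hyaluronan-binding protein, also binds spindle microtubules. Most cells of a grown artery rest outside the cell cycle, and transcripts of mitotic genes are made mainly by cells in the late part of the cycle. In tissue RNA, fewer dividing cells and less RNA per dividing cell cannot be told apart.

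The stretch around the start of each gene, 250 bases before to 50 after it, is shown because many late cell cycle genes carry a CHR element (TTTGAA, or less often the form TTTAAA), the site of the MuvB core of the DREAM complex, near CCAAT boxes, the site of NF-Y. Letters in capitals mark the CCAAT box (printed as ATTGG where it lies on the other strand), both forms of the CHR and, in Prim1, an E2F core (GCGGGAA on the other strand). The RefSeq promoter table of GRCr8 held all 5 genes. Prc1 lies at chr1:143659231-143659530 (plus strand), Spc25 at chr3:74396669-74396968 (minus), Hmmr at chr10:25665166-25665465 (minus), Kif2c at chr5:135899163-135899462 (minus) and Prim1 at chr7:1031212-1031511 (plus).
Prc1: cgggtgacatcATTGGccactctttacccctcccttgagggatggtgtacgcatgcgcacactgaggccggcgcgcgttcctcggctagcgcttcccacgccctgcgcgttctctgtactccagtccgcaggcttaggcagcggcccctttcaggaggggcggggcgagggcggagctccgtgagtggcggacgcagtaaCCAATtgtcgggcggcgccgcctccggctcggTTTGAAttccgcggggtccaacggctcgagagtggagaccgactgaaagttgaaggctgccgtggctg
Spc25: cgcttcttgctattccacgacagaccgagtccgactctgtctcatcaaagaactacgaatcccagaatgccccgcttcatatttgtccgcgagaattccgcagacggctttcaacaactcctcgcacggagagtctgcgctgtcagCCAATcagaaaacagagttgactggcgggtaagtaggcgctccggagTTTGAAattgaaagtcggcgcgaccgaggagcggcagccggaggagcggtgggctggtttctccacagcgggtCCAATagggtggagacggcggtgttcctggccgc
Hmmr: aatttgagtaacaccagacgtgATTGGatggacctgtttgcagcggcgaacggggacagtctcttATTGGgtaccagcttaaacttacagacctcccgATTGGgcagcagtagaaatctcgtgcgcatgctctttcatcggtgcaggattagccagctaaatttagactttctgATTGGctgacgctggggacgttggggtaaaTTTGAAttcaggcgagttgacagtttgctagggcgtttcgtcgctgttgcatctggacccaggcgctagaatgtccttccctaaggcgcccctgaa
Kif2c: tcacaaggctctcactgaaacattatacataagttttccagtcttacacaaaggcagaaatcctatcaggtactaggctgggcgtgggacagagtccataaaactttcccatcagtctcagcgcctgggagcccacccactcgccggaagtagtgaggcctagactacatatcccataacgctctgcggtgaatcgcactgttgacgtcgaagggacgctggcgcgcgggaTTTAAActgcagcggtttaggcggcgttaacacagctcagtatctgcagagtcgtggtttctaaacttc
Prim1: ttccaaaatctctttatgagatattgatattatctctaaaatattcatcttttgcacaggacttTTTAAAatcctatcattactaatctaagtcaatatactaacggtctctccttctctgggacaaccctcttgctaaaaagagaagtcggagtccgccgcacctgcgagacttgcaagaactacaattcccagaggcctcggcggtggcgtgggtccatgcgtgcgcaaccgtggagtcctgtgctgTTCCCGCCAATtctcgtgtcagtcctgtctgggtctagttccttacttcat

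Prc1, Spc25 and Hmmr each had a TTTGAA just before the start, at 18, 57 and 46 bases, with a CCAAT box further out, and Hmmr had 4 CCAAT boxes, all read on the other strand. The nearest CCAAT before the start lay at 50 bases in Prc1, 104 in Spc25 and 76 in Hmmr, and Spc25 had a further one 17 bases after it. Kif2c had TTTAAA at 19 bases and no CCAAT in this window. A second Kif2c window in the table, at chr5:135895504-135895803, held none of the 4 motifs. Prim1 had no TTTGAA; its TTTAAA lay 186 bases before the start, and its GCGGGAA, 1 base before the start, shared its last printed base with a CCAAT 6 bases after it. Searched on both strands over all 33469 windows of the table, CCAAT occurred in 37.5%, TTTGAA in 18.3%, TTTAAA in 13.6% and GCGGGAA in 4.21%, and CCAAT together with TTTGAA in 7.41%. These are matches of letters, not measured binding sites.

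Prc1, the central spindle protein, ranged over about 1 log2 unit within every group. In vehicle animals 3, 4, 5 and 8 its log2 intensity was 3.58, 2.59, 3.37 and 2.90. In estradiol benzoate animals 2, 3, 5 and 8 it was 2.65, 1.81, 2.92 and 1.92. In testosterone animals 2, 4, 6 and 8 it was 2.28, 3.36, 2.94 and 3.12. Estradiol benzoate animals 3 and 8 were the lowest of all 12, while animals 2 and 5 of that group lay within the vehicle range. The group means were 3.11 ± 0.45 in vehicle, 2.32 ± 0.54 in estradiol benzoate and 2.93 ± 0.46 in testosterone (SD, n = 4 each). Estradiol benzoate stood 0.79 below vehicle on the log2 scale (difference -0.79, SE 0.31), a ratio of 0.579, and the groups overlapped.

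Hmmr, read by probe 11534, split the animals in the same places. The log2 intensities were 1.85, 0.52, 1.45 and 1.49 in vehicle animals 3, 4, 5 and 8. They were 1.02, -0.24, 1.07 and -0.27 in estradiol benzoate animals 2, 3, 5 and 8. They were 0.19, 1.49, 0.90 and 1.56 in testosterone animals 2, 4, 6 and 8. Estradiol benzoate animals 3 and 8 were again the lowest, and the lowest of the other groups were again vehicle animal 4 and testosterone animal 2. The group means were 1.33 ± 0.56, 0.39 ± 0.75 and 1.03 ± 0.63 (vehicle, estradiol benzoate, testosterone; SD, n = 4 each). The difference of estradiol benzoate from vehicle was -0.93 (SE 0.41; ratio 0.524), with overlapping groups. The second Hmmr probe (10121) gave -0.75 (SE 0.38), and its deviations from the group means followed those of the first probe with r = 0.979 over the 12 animals. On 2 of its 24 arrays, 1 each of testosterone animals 2 and 4, the second probe had no value, so those animals rest on 1 array.

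Spc25, the kinetochore subunit, had its 2 lowest values in the same estradiol benzoate animals. Its log2 intensity was -0.10, -0.92, -0.14 and -0.39 in vehicle animals 3, 4, 5 and 8. It was -0.46, -1.24, -0.33 and -1.85 in estradiol benzoate animals 2, 3, 5 and 8. It was -0.70, 0.13, -0.54 and -0.57 in testosterone animals 2, 4, 6 and 8. Vehicle animal 4 and testosterone animal 2 were the lowest of their groups here too, and testosterone animal 4 was the highest of all. The group means were -0.39 ± 0.38, -0.97 ± 0.71 and -0.42 ± 0.37 (vehicle, estradiol benzoate, testosterone; SD, n = 4 each). The difference of estradiol benzoate from vehicle was -0.58 (SE 0.33; ratio 0.670). Without estradiol benzoate animal 8 it was -0.29, the smallest of the values with 1 animal left out.

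Kif2c, the microtubule-depolymerising kinesin, showed none of this spread. Its log2 intensity lay between -1.36 and -1.23 in vehicle, between -1.45 and -1.24 in estradiol benzoate and between -1.32 and -0.91 in testosterone. The means were -1.29 ± 0.07, -1.34 ± 0.09 and -1.06 ± 0.18 (SD, n = 4 each). In testosterone, animals 2, 6 and 8 (-1.04, -0.91 and -0.99) lay above every other animal, while animal 4 (-1.32) lay among the vehicle animals, so the groups overlapped. The difference of testosterone from vehicle was 0.23 (SE 0.10; ratio 1.17) and that of estradiol benzoate was -0.05 (SE 0.10). Vehicle animal 3 rests on 1 array for this probe, the third blank among the 144 array values of the 6 probes.

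Prim1, the primase subunit, was ordered by group in the other direction, with vehicle lowest. Its log2 intensity was -1.76, -1.72, -1.43 and -1.14 in vehicle animals 3, 4, 5 and 8. It was -0.69, -0.96, -1.29 and -1.14 in estradiol benzoate animals 2, 3, 5 and 8. It was -0.73, -0.65, -0.99 and -0.80 in testosterone animals 2, 4, 6 and 8. All 4 testosterone animals lay above all 4 vehicle animals, whereas estradiol benzoate overlapped with vehicle through its animal 5, and its animal 8 was level with vehicle animal 8. The means were -1.51 ± 0.29, -1.02 ± 0.26 and -0.79 ± 0.15 (SD, n = 4 each). The differences from vehicle were 0.49 (SE 0.16; ratio 1.41) for estradiol benzoate and 0.72 (SE 0.16; ratio 1.64) for testosterone. Both differences use the same 4 vehicle animals.

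**Figure D1:**
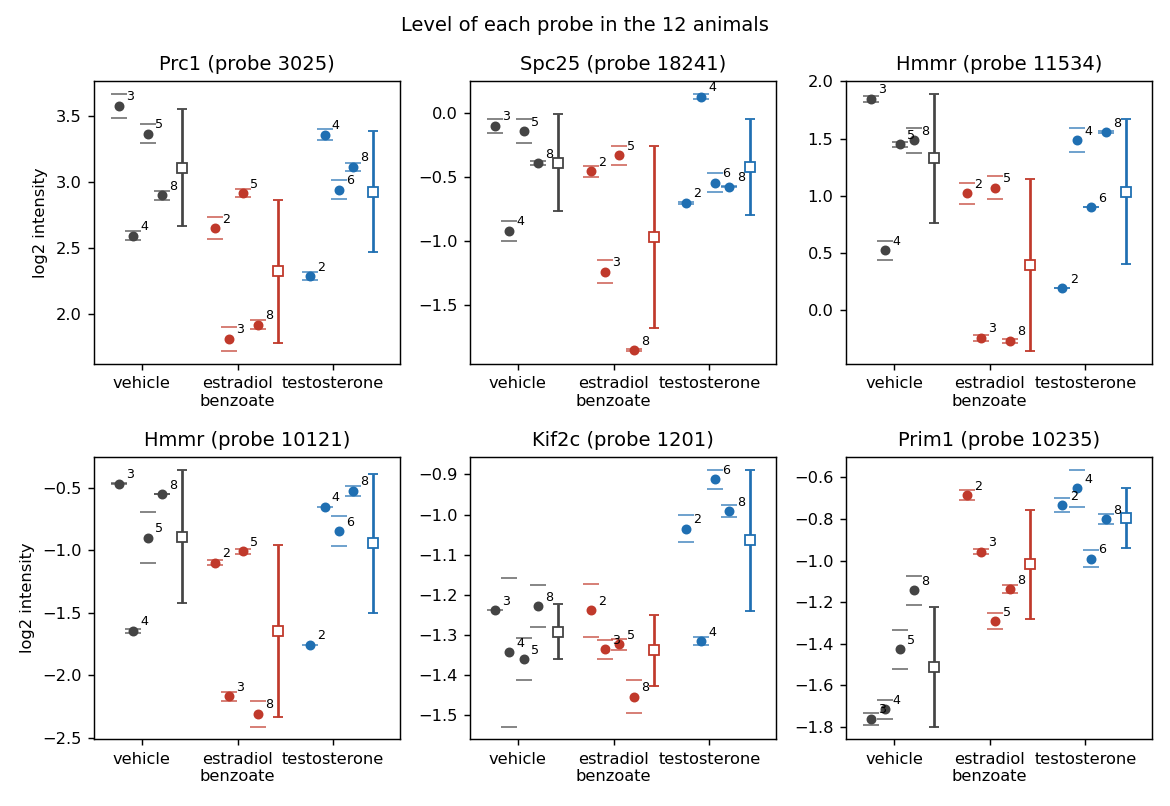
Level of the 6 probes in each animal (vertical axis, log2 intensity; its range differs between panels) by group (horizontal axis). Filled points are animals, numbered as labelled, short lines are the animal's 2 arrays, and open squares with bars are the group mean ± SD (n = 4). Estradiol benzoate animals 3 and 8 are the lowest points for Prc1, Spc25 and both Hmmr probes, and every testosterone animal is above every vehicle animal for Prim1.

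Read in order of their group means, the genes did not share a pattern. Prc1, Hmmr and Spc25 ran from estradiol benzoate (lowest) through testosterone to vehicle (highest). For these 3 genes vehicle and testosterone differed by less than the spread within either group, with differences of testosterone from vehicle of -0.18 for Prc1, -0.29 and -0.05 for the Hmmr probes and -0.03 for Spc25. Kif2c ran from estradiol benzoate through vehicle to testosterone, its first 2 groups being closer than their spread. Prim1 ran from vehicle through estradiol benzoate to testosterone, and its hormone groups were 0.22 apart, less than the SD of 0.26 in estradiol benzoate. Between the hormones, estradiol benzoate was below testosterone by 0.60 for Prc1, 0.64 and 0.70 for the Hmmr probes, 0.54 for Spc25 and 0.27 for Kif2c, with overlapping groups in each case (SE 0.31, 0.41, 0.38, 0.33 and 0.10). Without estradiol benzoate animal 8 this difference was -0.25 for Spc25 and -0.42 for Hmmr (probe 11534), without estradiol benzoate animal 3 it was -0.43 for that Hmmr probe, and without testosterone animal 4 it was -0.36 for Spc25.

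None of the 6 probes was called in any comparison by limma at an adjusted p under 0.05 over all probes. The background for such calls was close to nothing. In estradiol benzoate against vehicle 0% of the 10228 probes were called (1376 had an unadjusted p under 0.05), in testosterone against vehicle 0.0489% (5 probes) and in estradiol benzoate against testosterone 0.0293% (3 probes). Groups did not overlap for 0 of the 6 probes in estradiol benzoate against vehicle, where 7.82% of all probes had groups apart. In testosterone against vehicle they were apart for Prim1 alone of the 6, where 5.59% of all probes had groups apart in either direction and 2.45% with testosterone higher. In estradiol benzoate against testosterone they were apart for 0 of the 6, and for 3.05% of all probes. Since the genes were selected on these contrasts, nothing is read from the counts.

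Prc1, Spc25 and Hmmr varied widely between animals of a group, far beyond the difference between arrays. Their SD within groups was 0.49, 0.51 and 0.66 log2 units, against 0.08, 0.08 and 0.09 between the 2 arrays of an animal. Among probes whose mean lay within 0.5 log2 units of their own, these SDs stood at the 99.1, 96.8 and 99.2 percentile, where the median SD was 0.16, 0.19 and 0.17. The second Hmmr probe, with an SD of 0.60, stood at the 97.5 percentile. The deviations of the animals from their group mean repeated between the first and the second array of each animal, with r = 0.985 for Prc1, 0.977 for Spc25 and 0.978 for Hmmr. Prim1 had an SD of 0.24 (percentile 64.8) and also repeated between arrays (r = 0.962). For Kif2c the SD between animals of 0.12 (percentile 10.1) was close to that between arrays, 0.09, and the deviations repeated with r = 0.489 over the 11 animals with both arrays. The SD of 0.12 is that of means of 2 arrays and the 0.09 that of single arrays, so they are not on the same footing. The largest gap between arrays of an animal was 0.37, in vehicle animal 4. The testosterone animals spanned 0.40.

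Prc1, Spc25 and Hmmr moved together from animal to animal within the groups, while the pairs with Kif2c or Prim1 had an r near 0. With group means removed, all 10 pairs of genes were compared over the 12 animals, with exact two-sided permutation of animals within groups and adjustment over the 10 pairs. The low values of estradiol benzoate animals 3 and 8 also entered the group differences that chose the genes, so these p-values describe the animals and are no independent evidence. Over all 10 pairs the median r was 0.14, and it ranged from -0.03 (without estradiol benzoate animal 2) to 0.55 (without testosterone animal 4) with 1 animal left out. Prc1 and Hmmr had r = 0.94 (permutation p = 0.00101, adjusted 0.0101) and rho = 0.89 (p = 0.00217, adjusted 0.0109). Prc1 and Spc25 had r = 0.85 (permutation p = 0.00615, adjusted 0.0282) and rho = 0.90 (p = 0.00152, adjusted 0.0109). Spc25 and Hmmr had r = 0.84 (permutation p = 0.00846, adjusted 0.0282) and rho = 0.83 (p = 0.0104, adjusted 0.0347). For each of these 3 pairs, 10 of 12 animals deviated to the same side in both genes.

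The 3 relations were about as large when the genes of a pair were read on different arrays. With the first gene read on 1 array of each animal and the second gene on the other, r was 0.91 and 0.96 for Prc1 with Hmmr, 0.84 and 0.83 for Prc1 with Spc25, and 0.83 and 0.83 for Spc25 with Hmmr. Both arrays of an animal carry the same cRNA, so variation from dissection, extraction or labelling is shared by all values of that animal. Without the 2 animals farthest from the median of the first gene, r was 0.90, 0.85 and 0.82 for the same pairs. Without the 4 lowest animals (vehicle 4, estradiol benzoate 3 and 8, testosterone 2), a choice made after seeing the data, r over the remaining 8 was 0.72 for Prc1 with Hmmr, 0.79 for Prc1 with Spc25 and 0.64 for Spc25 with Hmmr. Over the 8 vehicle and testosterone animals alone, also chosen after seeing the data, r was 0.91, 0.84 and 0.76 for the same pairs.

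**Figure D2:**
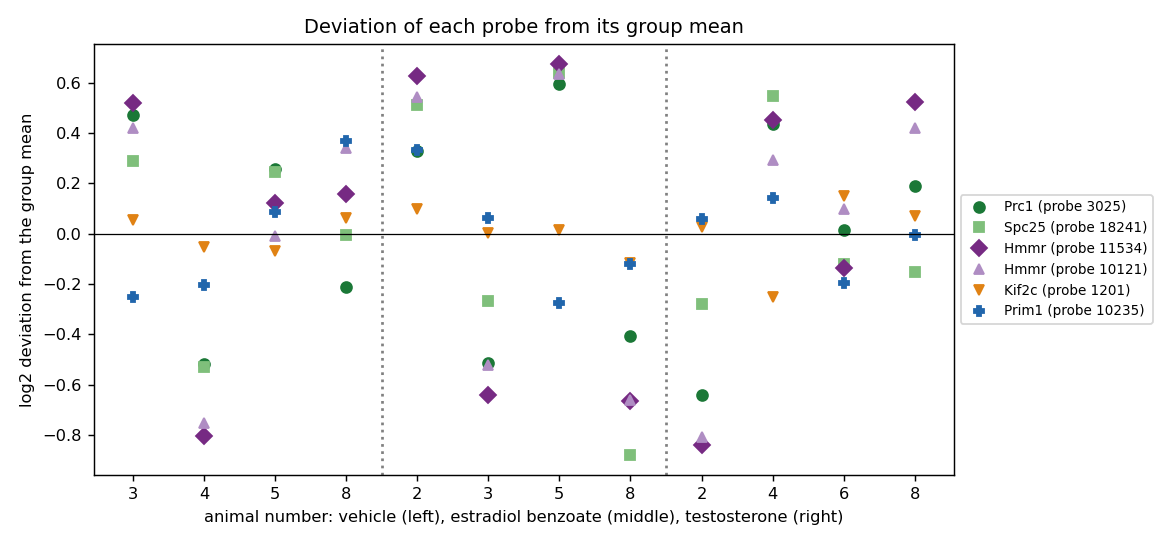
Deviation of each probe from its group mean (vertical axis, log2) in the 12 animals (horizontal axis, vehicle, estradiol benzoate and testosterone from left to right); each symbol is 1 probe. Prc1, Spc25 and both Hmmr probes fall together in vehicle animal 4, estradiol benzoate animals 3 and 8 and testosterone animal 2, where Hmmr (11534) lies 0.64 to 0.84 below its group mean.

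The 7 pairs that included Kif2c or Prim1 had r between -0.08 and 0.20, each with an adjusted permutation p of 0.984. The low r of Kif2c stands beside its low repeatability between arrays. Prim1 repeated as well as the others, and its r was -0.08 with Prc1, 0.20 with Spc25 and 0.14 with Hmmr. A p that misses the threshold over 12 animals does not show that these genes vary independently.

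**Figure D3:**
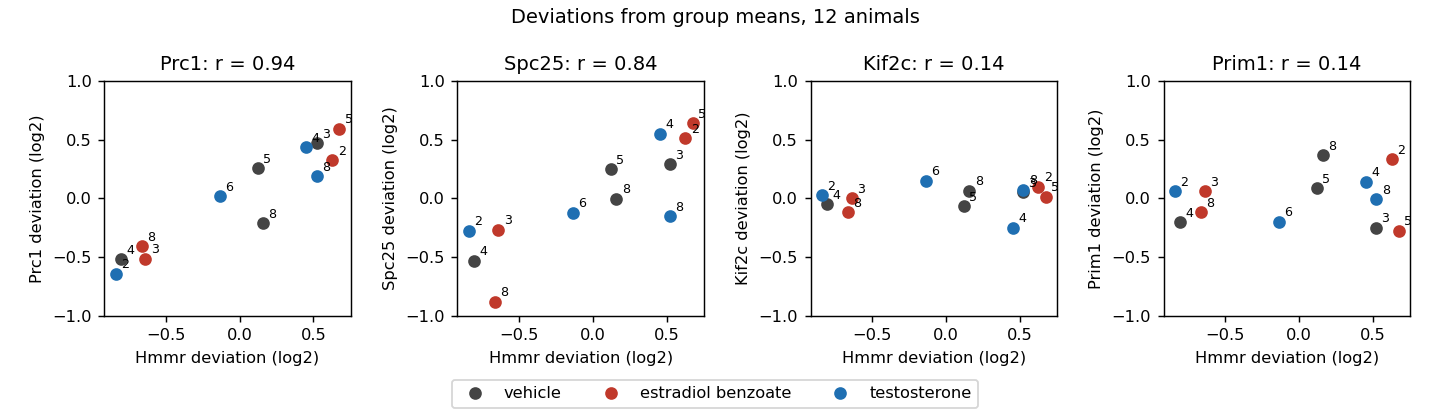
Deviation from the group mean of Hmmr (probe 11534; horizontal axis, log2) against that of Prc1, Spc25, Kif2c and Prim1 (vertical axes, log2). Points are the 12 animals, coloured by group and numbered as labelled; r is Pearson's. Prc1 (0.94) and Spc25 (0.84) rise along with Hmmr, Kif2c (0.14) and Prim1 (0.14) stay flat.

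The genes whose deviations were most like those of Prc1, Spc25 and Hmmr were looked up over the 12 animals, among probes with a value in all of them (10025) and, for naming, with a single symbol. Some unnamed probes had a higher r. Among the named genes, closest to Prc1 were Cdk1, the kinase that starts mitosis (r = 0.97), and the centromere proteins Cenpt (0.97) and Cenpm (0.96). Closest by name to Spc25 were the kinesin Kif18b (0.95), the cyclin Ccna2 (0.92) and Racgap1, which works with Prc1 at the central spindle (0.90). Closest by name to Hmmr were Arhgap11a (0.96), the spindle protein Dlgap5 (0.96) and the kinetochore protein Cenpf (0.96). The mean of the 5 genes' deviations was followed most closely by Cenpf, Cdk1, Cenpt, Ccna2, Kif18b, Dlgap5, the kinase Melk and Fam111a (r from 0.93 to 0.97). The deviations were averaged unscaled, so the widely varying Prc1, Spc25 and Hmmr weigh most in this mean. Cenpf, the closest to it, had r = 0.06 with Kif2c and 0.16 with Prim1. Each value is a description, since all points share the animals and their cRNA.

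A value of r above 0.8 was reached by 73 probes with Prc1 (0.728% of the 10025), 64 with Spc25 (0.638%) and 62 with Hmmr (0.618%). It was reached by 31 with Prim1 (0.309%) and by 16 with Kif2c (0.160%). With all 3 of Prc1, Spc25 and Hmmr at once it was reached by 32 probes (0.319%). Of these 32, 10 had no single symbol and 17 were genes of the cell division lists described next: Aurkb, Ccna2, Cdc45, Cdca8, Cdk1, Cenpf, Cenpm, Cenpt, Cks2, Espl1, Kif18b, Kifc1, Kntc1, Melk, Mki67, Ncapd2 and Racgap1. They include the proliferation marker Mki67, the mitotic kinase Aurkb, separase (Espl1), which cuts cohesin at anaphase, and the condensin subunit Ncapd2. The other 5 were Dlgap5, Fam111a, Fancd2, Mxd3 and Sms. The cut of 0.8, this set of 3 genes and the names were chosen after the values were seen.

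The same pair of promoter motifs as in Prc1, Spc25 and Hmmr, CCAAT with TTTGAA, was counted among these genes. The RefSeq table gave a window for 13 of the 17 listed genes, and 9 of the 13 held both motifs. Of 52 other genes of the lists with a window, 4 held both. This count was added after the values were seen and is a description of letters near the start.

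Kif2c and Prim1 had other neighbours. Among named genes, closest to Kif2c were Lmod2 (r = 0.90), the amino acid transporter Slc7a5 (0.89) and Ddn (0.86), none of which is a cell division gene. Closest to Prim1 were the antioxidant enzyme Prdx1 (0.88), the mitochondrial ribosomal protein Mrps33 (0.86) and the pyruvate dehydrogenase kinase Pdk1 (0.86). Among the listed genes, Prim1 varied along with its partners in the polymerase alpha complex Prim2 (r = 0.78) and Pola1 (0.78), though less with Pola2 (0.21). It also varied along with the sliding clamp Pcna (0.74) and with E2f5 (0.84). These were named after their r had been seen. Lmod2, Prim2 and Ddn were faint, with mean log2 intensities of -5.40, -4.05 and -3.40.

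Lists of cell division genes, 6 in all, were set beside the 5 genes, with the 5 left out: kinetochore and spindle checkpoint (9 measured), spindle, motor and cytokinesis (13), mitotic kinase, cyclin and anaphase (13), DNA replication (27), condensin and cohesin (5) and control of the step from G1 to S phase (14). By their medians the mitotic lists followed Hmmr between animals and the G1 to S list did not, but the lists were split. The lowest r with Hmmr was -0.17 among kinetochore genes (Zw10), -0.42 among spindle genes (Numa1) and 0.03 among mitotic kinase genes (Cdc25b). In the G1 to S list the highest was 0.71 (Ccne1). The median r with Hmmr was 0.76 for kinetochore genes, 0.84 for spindle genes and 0.80 for mitotic kinase genes. It was 0.47 for DNA replication, 0.47 for condensin and cohesin and 0.02 for G1 to S, against 0.01 over all probes. An r above 0.8 with Hmmr was reached by 4 of 9, 7 of 12, 7 of 13, 4 of 26, 1 of 5 and 0 of 14 genes in that order, counting genes with a value in all 12 animals. With Prim1 the median r was between -0.13 and 0.20 in all 6 lists, and with Kif2c between 0.02 and 0.16.

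**Figure D4:**
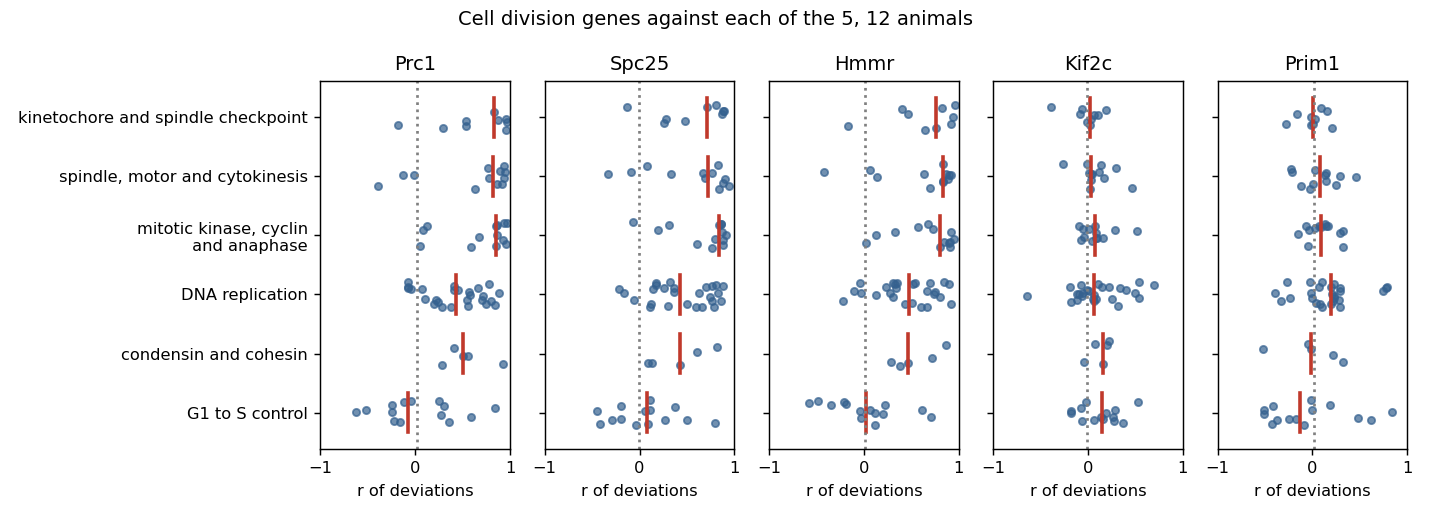
Pearson r over 12 animals between deviations from the group means of each cell division gene (points, by list) and of Prc1, Spc25, Hmmr, Kif2c and Prim1 (horizontal axes, no unit). Red lines are list medians and dotted lines the median of all probes. The 3 mitotic lists have medians of 0.71 to 0.86 with Prc1, Spc25 and Hmmr, and lie near 0 with Kif2c and Prim1.

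Between the groups, 0 of the 81 genes of these lists were called by limma, higher or lower, in any of the 3 comparisons. The smallest adjusted p over all probes was 0.203 in estradiol benzoate against vehicle, 0.225 in testosterone against vehicle and 0.589 between the hormones. An unadjusted p under 0.05 was reached by 6 genes (4 lower), 9 (5 lower) and 4 (3 lower), that is 7.41%, 11.1% and 4.94%, where all probes gave 13.5%, 14.0% and 4.13%. In estradiol benzoate, 55 of the 81 genes lay below vehicle (67.9%, all probes 52.4%), with a median difference of -0.11 against -0.01 for all probes. In testosterone, 49 of the 81 lay below vehicle (60.5%, all probes 52.3%), with a median of -0.05 against -0.01 for all probes. Against testosterone, 62 of 81 estradiol benzoate means were lower (76.5%; all probes 51.5%), with a median of -0.12. Both comparisons of estradiol benzoate use the same animals of that group, among them the low animals 3 and 8. Both comparisons with vehicle use the same vehicle animals. All 24 arrays were also fitted with the animal as a random block and 1 correlation for all probes, which can call too many. Limma then called 1 (Cdkn1c), 3 (Cdk2, Cdkn1a and Cdkn1c) and 1 (Cdkn1a) of the 81 genes, that is none of the mitotic lists. Of all probes, 2.21%, 1.48% and 0.391% were called.

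The spindle list had the lowest median in estradiol benzoate against vehicle, -0.37, with 10 of 13 genes below 0. That median is the value of Stmn1, which had no value in estradiol benzoate animal 5. The estradiol benzoate mean of Stmn1 rests on animals 2, 3 and 8, of which 3 and 8 were low in Prc1, Spc25 and Hmmr. The kinase list followed with -0.27 (10 of 13), then condensin and cohesin with -0.24 (5 of 5), kinetochore with -0.09 (6 of 9) and DNA replication with -0.05 (18 of 27). The G1 to S list stood at 0.04 (6 of 14). In testosterone against vehicle the medians lay between -0.20 and 0.04. They were -0.07 for the spindle list (11 of 13 below 0), -0.11 for the kinase list (9 of 13) and -0.20 for condensin and cohesin (4 of 5). For kinetochore genes the median was -0.17 (6 of 9), for DNA replication 0.04 (10 of 27) and for G1 to S -0.07 (9 of 14). For comparison, the difference of estradiol benzoate from vehicle was -0.79 for Prc1, -0.93 for Hmmr and -0.58 for Spc25, where the lowest of the 81 listed genes was Cdk1 at -0.83.

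Single genes of the lists, taken by the smallest p for any group difference, did not pass over all probes. Cenpf, a kinetochore protein, had a difference of -0.75 between estradiol benzoate and vehicle (SE 0.36; limma adjusted p = 0.380). The kinetochore protein Cenpi had -0.04, and 0.20 in testosterone. The microtubule polymerase Ckap5 had -0.33 and Stmn1, which destabilises microtubules, -0.37, the latter without a value in estradiol benzoate animal 5. Wee1, which holds Cdk1 inactive, was at 0.10 in estradiol benzoate and 0.37 in testosterone, and the phosphatase that reverses this, Cdc25b, at 0.38 and 0.51. The cohesin subunits Smc3 and Stag1 were at -0.24 and -0.26.

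The partners of Prim1 had differences of either sign. Prim2, which forms primase with Prim1, was above vehicle like Prim1. Its differences were 0.34 in estradiol benzoate (SE 0.14, limma adjusted p = 0.335) and 0.33 in testosterone (limma adjusted p = 0.343). The Prim2 signal was faint, with a mean log2 intensity of -4.05. Pola1, the catalytic subunit of DNA polymerase alpha, had differences of -0.55 (SE 0.17; limma adjusted p = 0.239) and -0.51 (limma adjusted p = 0.269). Pola2, the other subunit of that polymerase, had -0.21 and 0.11 (SE 0.12; limma adjusted p = 0.459 and 0.722). Prim1 thus varied with Pola1 within groups (r = 0.78) while their group means differed in opposite directions. Among G1 to S genes, the inhibitor Cdkn1c had -0.63 in estradiol benzoate (SE 0.18; limma adjusted p = 0.203) and -0.61 in testosterone (limma adjusted p = 0.228), with vehicle animal 5 (0.68) apart from the other vehicle animals (1.23 to 1.26). The inhibitor Cdkn1a had 0.10 and -0.71 (SE 0.22; limma adjusted p = 0.863 and 0.249), and its second probe 0.50 and -0.25.

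**Figure D5:**
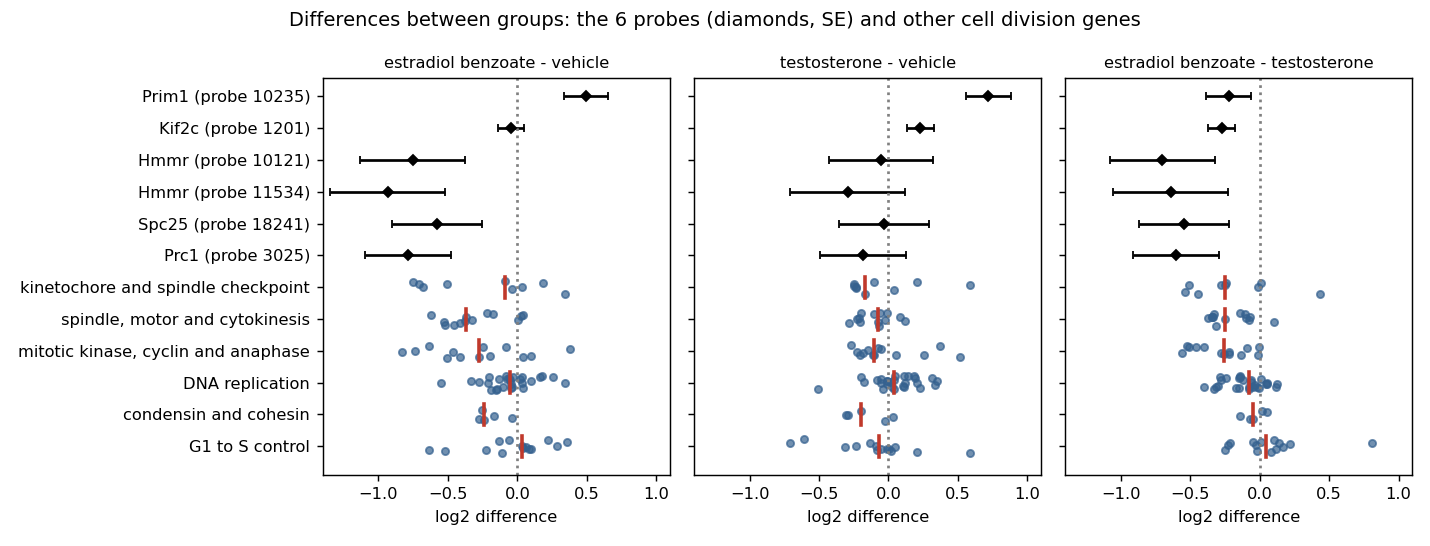
Log2 differences between groups (horizontal axes) for the 6 probes (diamonds with SE) and for the genes of the 6 lists (points; red lines are medians). Prc1, Spc25 and both Hmmr probes lie below 0 in estradiol benzoate against vehicle and against testosterone, and Prim1 lies at 0.49 and 0.72 above vehicle.

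Signs of sample quality were compared across the animals. The array medians lay between 0.926 and 0.951 in intensity, and both arrays of an animal correlated at 0.976 to 0.993. The animals with low Prc1, Spc25 and Hmmr (vehicle 4, estradiol benzoate 3 and 8, testosterone 2) had duplicate correlations of 0.989, 0.991, 0.993 and 0.984. The medians of all arrays lay too close together to set any sample apart. Values blank, or at or below 0, numbered 161 to 702 per array, with the most on the first array of vehicle animal 5. Testosterone animal 2 had 503 and 252 on its arrays, and the other low animals had 181 to 307. The smooth muscle markers Cnn1, Smtn and Itga8 (3 of 10 listed were measured) and 8 of 10 endothelial markers were present in every animal. Their summed intensities were 44.0 to 66.4 and 45.0 to 64.4.

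The summed markers of some other cells had different ranges in the groups. For T lymphocytes 10 of 13 listed genes were measured, 6 of them with a mean intensity below 0.1 (Cd247, Cd8a, Cd8b, Cd4, Cd28 and Ccr7) and none at 0. Their summed intensity was 0.793 to 0.965 in vehicle, 1.01 to 1.59 in estradiol benzoate and 1.04 to 1.43 in testosterone, so it was lowest in the group in which Prim1 was lowest. Within groups its r with Prim1 was -0.43 (exact permutation p = 0.224, adjusted 0.875; rho = -0.30, p = 0.383; r = 0.03 without the 2 animals farthest from the median). For brown adipocytes (5 of 6 measured, 2 with a mean intensity below 0.1) the sum was 3.76 to 4.52 in vehicle, 5.10 to 6.28 in estradiol benzoate and 4.01 to 5.50 in testosterone. Cidea, with a mean intensity of 3.78, made up most of this sum. The differences of estradiol benzoate from vehicle were 0.47 for Cidea, 0.55 for Cpt1b, 0.18 for Ucp1, 0.07 for Ppargc1a and -0.07 for Cox8b. For mast cells (7 of 7 measured, 6 summed) the sum was 8.93 to 10.9, 6.95 to 8.84 and 7.83 to 11.7. Of the summed mast cell genes, Tpsb2 alone was above vehicle in estradiol benzoate, at 0.12. The part of these cells in the group differences was not tested.

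Pancreatic acinar markers (6 of 9 measured) summed to 91.1 in estradiol benzoate animal 3, 1 of the lowest for Prc1, Spc25 and Hmmr, and to at most 4.40 in every other animal. Animal 8 of that group, about as low for Hmmr, had 4.40, and its animals 2 and 5 had 0.453 and 1.44. The low vehicle animal 4 and testosterone animal 2 had 0.436 and 0.462. Within groups the r of this sum was -0.51 with Prc1, -0.43 with Spc25 and -0.52 with Hmmr (exact permutation p = 0.158, 0.445 and 0.156). Without the 2 animals farthest from the median (estradiol benzoate 3 and 2), r was -0.34, -0.34 and -0.29. With Hmmr, 0 of the 6 genes had an r above 0. Across all 55 relations between the sums of 11 marker lists and the 5 genes, none passed adjustment (smallest adjusted permutation p 0.692 for r and 0.481 for rho). The closest was that of endothelial markers with Prc1, r = 0.74 (permutation p = 0.0173) and rho = 0.80 (p = 0.00875), and r = 0.68 without the 2 animals farthest from the median (testosterone 4, with a sum of 64.4, and estradiol benzoate 3, with 45.0). The same sum had r = 0.57 with Hmmr and 0.54 with Spc25 (exact permutation p = 0.109 and 0.106, rho = 0.54 and 0.62). The genes of the sum were split. With Prc1, r was 0.82 for Pecam1, 0.57 for Tek, 0.35 for Vwf, 0.25 for Tie1 and 0.18 for Edn1. It was -0.29 for Flt1, -0.30 for Kdr and -0.43 for Ace. Pecam1 had r = 0.68 with Hmmr and 0.56 with Spc25, but only 4 of the 8 genes were above 0 with Hmmr (median 0.05). Smooth muscle markers had r = -0.64 with Kif2c (exact permutation p = 0.0252, rho = -0.55), and -0.58 without the 2 animals farthest from the median. These genes were split too, with r to Kif2c of -0.72 for Cnn1, -0.36 for Itga8 and 0.21 for Smtn. The part of these cells in the joint variation was not tested. Hepatocyte markers (6 of 10 measured, 5 summed) reached 20.3 in vehicle animal 5 and at most 3.49 elsewhere. No B lymphocyte marker of 7 listed was measured, so those cells were not examined.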

How the data were processed

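The authors deposited linear spot intensity of 24 CodeLink arrays, labelled with Alexa-647 per the labels; no source used here gives the software, the background correction or the scaling, and the number of arrays limits the precision. The 5 genes, the gene lists and the choice of tests were made with earlier results of these data known. Values at or below 0 (327) were treated as missing, log2 was taken with no pseudocount, and both arrays of an animal were averaged. Intensities of different probes are not compared. A group-means model was fitted to 12 animals with limma 3.58.1 (R 4.3.3; 9 residual and 2.51 prior degrees of freedom), two-sided, with Benjamini-Hochberg adjustment over 10228 probes, and was tested on simulated data. Genes were named from the platform table (7294 probes with 1 symbol, 88 with several, 3017 with none; 7284 matched to RefSeq). The brightest probe stood for a gene. Named were the 5 genes, any called gene and the 2 genes with the smallest F test p of each list, and the 3 genes most like each of the 5 (8 for their mean). Marker sums used genes with a value in all animals and were correlated as logarithms. Labels do not say whether animals were handled in batches. Exact permutation over 13824 orders within groups tested correlations (numpy 2.4.6).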

Additional observations from a re-analysis of the deposited data

Results flagged for a closer look

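Among 135 combinations of gene or marker sum and group of 4 animals that were examined, 4 held an animal far from the other 3 on the log2 scale. Chance alone gives about 1 in 20, so 4 of 135 is no more than chance would give. Cenpi was highest in vehicle animal 3 at a log2 intensity of -2.54, where the other vehicle animals lay between -2.92 and -2.88. Cdc25b was highest in estradiol benzoate animal 5 at -1.48, where the others lay between -2.43 and -2.29. Cdkn1c was lowest in vehicle animal 5 at 0.68, where the others lay between 1.23 and 1.26. The summed intensity of pancreatic acinar markers was highest in testosterone animal 6 at 2.02, where the others lay between 0.377 and 0.463; the higher sum of 91.1 in estradiol benzoate animal 3 was not far enough from the rest of its group on this scale. None of the 5 genes themselves stood out in this way in any group.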

How the results depend on the processing

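The 18 differences of the 6 probes between groups, recomputed under alternatives (387 values), all stayed within 1 SD of their value. That SD is the one between animals of a group. Leaving out 1 of 4 animals cannot move a group mean that far, so those values could not fail. For Spc25 the SD was 0.51, beside a difference of -0.58 between estradiol benzoate and vehicle, so the count says little about stability. The sign changed only in testosterone against vehicle, for Prc1 (2 alternatives), Hmmr probe 10121 (5) and Spc25 (6), where the differences were near 0. With 1 animal left out, the difference between estradiol benzoate and vehicle ranged from -0.99 to -0.62 for Prc1, from -1.20 to -0.71 for Hmmr and from -0.79 to -0.29 for Spc25. The median r of all 10 pairs was 0.14 and ranged from -0.03 (without estradiol benzoate animal 2) to 0.55 (without testosterone animal 4). The lowest r among Prc1, Spc25 and Hmmr, a choice made after seeing the data, was 0.84, 0.81 to 0.88 with 1 animal left out, 0.64 without the 4 lowest animals and 0.76 in the vehicle and testosterone animals alone. Kif2c and Hmmr probe 10121 lacked values on single arrays and have no result where values on all 24 were required, nor has that Hmmr probe one from the second arrays alone, and the correlations have none there, in the 24-array fit or in the fit with trend.

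Counts of called probes (0 in estradiol benzoate against vehicle, 5 in testosterone against vehicle and 3 between the hormones) were small and moved with the setting; the causes were not tested. In that order, quantile normalization gave 0, 8 and 0, a filter at the 25th percentile 3, 2 and 4, values on all 24 arrays 2, 3 and 4, the first arrays alone 1, 3 and 1, the second arrays alone 0, 4 and 0, and a trend with robust fit 3, 5 and 4. With 1 animal left out the counts ranged from 0 to 2, from 0 to 45 (45 without vehicle animal 5) and from 0 to 1. Fitting all 24 arrays with the animal as a random block (correlation 0.631) gave 226, 151 and 40. Of the 81 listed genes it called 1 (Cdkn1c), 3 (Cdk2, Cdkn1a, Cdkn1c) and 1 (Cdkn1a). That 1 correlation was applied to every probe, whereas deviations repeated between arrays at r = 0.985 for Prc1 and 0.489 for Kif2c. For probes that repeat more closely, this fit counts the arrays of an animal as partly separate and can call too many. A replicate block on the animals' numbers gave 0, 0 and 0. Deviations of same-numbered animals correlated between -0.116 and 0.298, and those of differently numbered animals of different groups between -0.277 and 0.239. What the numbers stand for is not known here, and whether they pair animals was not tested.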
